A study of Homo sapiens with 6 samples.

Results

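The 34 genes described here encode members of the nuclear receptor superfamily in human cells: the receptors for fatty acids, retinoids, thyroid hormone, heme, sterols, xenobiotics, vitamin D and steroids, and 12 receptors treated as orphans. They were taken by symbol from 43424 genes counted in each library, and each of the 34 symbols was found. The libraries came from HepG2, an established line of human liver cancer cells with wild-type genotype per the labels. The treated group was 3 cultures exposed for 24 h to tamarixetin, which is quercetin (a dietary flavonol) with an added O-methyl group, at 10 µM, and the control group was 3 cultures of the same time point listed with no treatment. The samples of each group are called biological replicates of this single line, and a vehicle is not named. Cells were grown in 10% serum and treated in 1% serum; for control cultures the labels do not say which serum level was used, so an effect of the compound and a difference in serum or vehicle cannot be told apart. The libraries read the 3′ end of each mRNA, so longer transcripts do not give more counts, and levels in CPM, each library's counts scaled to the same total, can be set side by side between genes without dividing by length.

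Nuclear receptors are transcription factors that bind DNA through a zinc finger domain and, in many cases, a small lipophilic ligand through a second domain. Many members of the NR1 subfamily bind DNA together with an RXR partner at repeats of the core AGGTCA, while steroid receptors bind as homodimers after release from the HSP90 chaperone. Ligand exchanges corepressors for coactivators such as NCOA3. In the liver these receptors set the rate of lipid, bile acid, glucose and drug metabolism.

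In the libraries, 11980585 to 15454815 counts came from tamarixetin and 12131365 to 16168855 from control cultures, and the 34 receptors took 0.0943% to 0.0961% of them with tamarixetin and 0.0959% to 0.0994% in control. All 10 of the hepatocyte and HepG2 markers examined, such as ALB and AFP, had counts, and their summed level was 10860 to 11140 CPM with tamarixetin and 18690 to 19160 CPM in control (CPM of all counts). Markers of other cell types were low: 4 stromal genes summed to 26.8 to 29.3 CPM with tamarixetin and 30.3 to 34.5 CPM in control, 4 immune genes to 13.6 to 15.9 CPM with tamarixetin and 13.1 to 15.6 CPM in control, and 4 endothelial genes to 1.03 to 1.92 CPM with tamarixetin and 0.866 to 1.40 CPM in control, with CD3E and KDR at 0 counts. The part of the lower hepatocyte marker level in the receptor values was not tested. In bulk RNA, fewer cells with a transcript and less of it per cell cannot be told apart.

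Of the 34 receptors, 26 had enough counts to be tested, and their levels spanned from the COUP-TF genes, the most abundant, to HNF4G. The COUP-TF genes NR2F6 and NR2F2, repressors and regulators of development and metabolism, stood at 106 ± 4.49 CPM with tamarixetin and 138 ± 5.43 CPM in control for NR2F6 and 121 ± 4.30 CPM with tamarixetin and 137 ± 6.78 CPM in control for NR2F2 (SD, n = 3 each). With tamarixetin NR2F2 and NR2F1 had the highest means, and in control NR2F6 and NR2F2, and within each group these neighbours differed by less than their SDs. NR2F1, the germ cell nuclear factor gene NR6A1 and RXRA, the common partner of NR1 receptors, followed in control at 121, 108 and 97.4 CPM. Over all 6 libraries RXRA lay at percentile 85.2 and NR2F2 at percentile 89.0 of the mean levels of all genes tested, while HNF4G lay at percentile 12.8.

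The other 8 receptors were near the limit of detection. RXRG, the RXR form of muscle and brain, had 0 counts in all 6 libraries, which allows at most 0.194 to 0.250 CPM with tamarixetin and 0.186 to 0.247 CPM in control (3 counts per library, counting error only). RARB, ESRRG and NR4A3 had at most 1 count in any library. The estrogen receptor gene ESR1 had 2, 0 and 2 counts in the tamarixetin libraries, against 2, 5 and 14 in the control libraries, and the xenobiotic receptor CAR (NR1I3) had 1, 3 and 2 counts in the tamarixetin libraries, against 6, 8 and 4 in the control libraries. The mineralocorticoid receptor gene NR3C2 had 0 to 5 and NR4A2 had 0 to 11 counts per library. When the filter on low counts was lifted, the adjusted p of the 7 of these genes with any count ran from 0.110 for ESR1 to 1.000 for RARB, so a difference in them was not detectable at this depth.

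**Figure D1:**
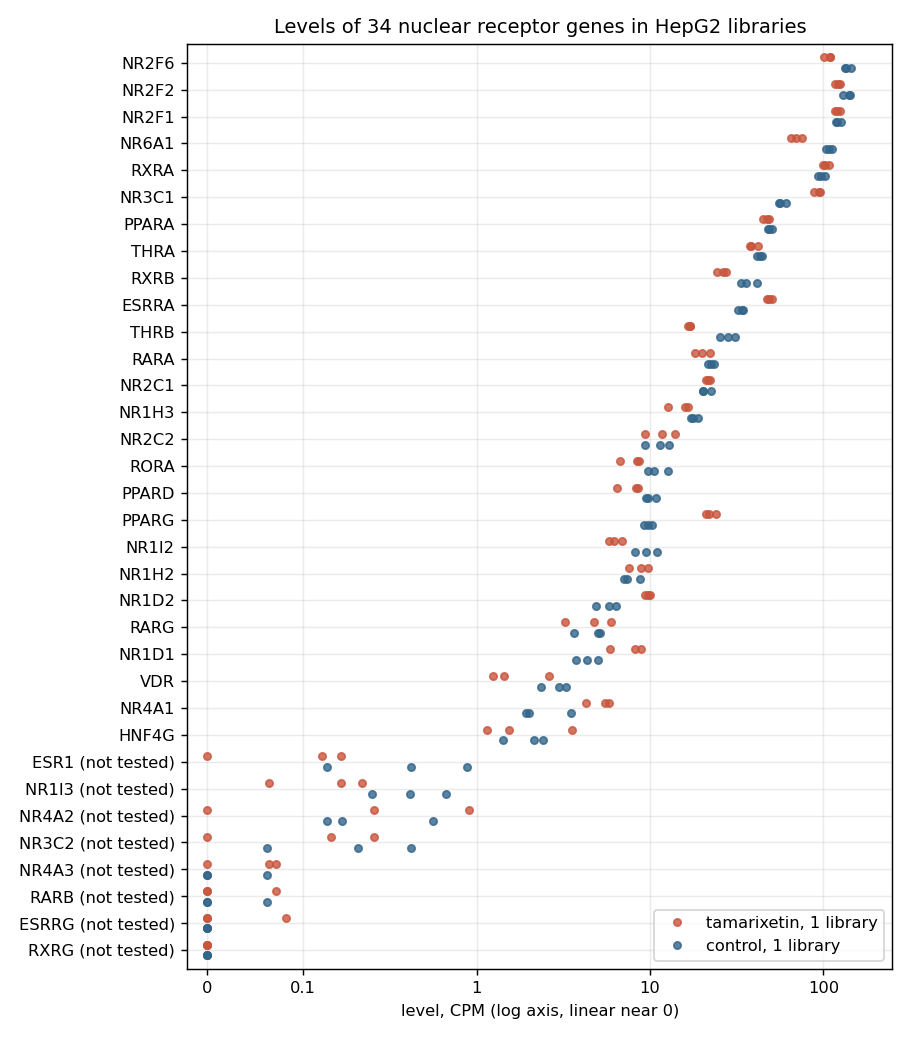
Level of each of the 34 receptor genes (CPM, log axis, linear near 0) in each tamarixetin and control library, 1 point per library, ordered by the control mean. Levels run from 0 in every library for RXRG to 144 CPM for NR2F6 in control replicate 1, and the 8 untested genes lie below 1 CPM in every library.

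With tamarixetin, 6 of the 26 tested receptors rose and 8 fell, and 12 did not pass the test (adjusted p under 0.05 in edgeR's quasi-likelihood test, adjusted over 13198 genes by Benjamini-Hochberg). The 14 called make up 53.8% of the receptors tested, against 43.7% of all genes tested, 22.4% of them higher and 21.3% lower. The genes that rose were PPARG, NR4A1, NR1D1, NR1D2, NR3C1 and ESRRA, and those that fell were THRB, NR6A1, NR1I2, RXRB, RORA, NR2F6, PPARD and NR2F2. The groups did not overlap in 15 of 26 receptors (57.7%), against 50.5% of all genes tested, and these were the 14 called and NR1H3. A change of at least 1.5-fold was called in 8 of the 26 receptors, against 1880 of the 13198 genes tested (14.2%). The largest fold changes among the called receptors were those of PPARG (2.29-fold) and NR4A1 (2.07-fold). The median log2 fold change over the 26 receptors was -0.038, beside 0.00038 over all genes tested, and the summed level of the 34 receptors was 944 ± 10.6 CPM with tamarixetin and 994 ± 20.9 CPM in control (SD, n = 3 each).

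By subfamily, 3 of 14 tested NR1 genes rose and 4 fell, while of 8 tested NR2 genes none rose and 3 fell. Both tested NR3 genes, NR3C1 and ESRRA, rose, as did the single tested NR4 gene, and the single NR6 gene fell. By ligand class, the heme receptors rose in 2 of 2, and the steroid class in the 1 of 3 that was tested. Of the 3 fatty acid receptors 1 rose and 1 fell, and of 9 tested orphans 2 rose and 3 fell. None of the tested members rose among 4 retinoid, 2 thyroid hormone, 3 sterol (NR1H2, NR1H3 and RORA), 1 xenobiotic and 1 vitamin D receptor. In the retinoid, thyroid hormone, sterol and xenobiotic classes 1 gene each fell, and the vitamin D receptor did not pass the test. The classes hold 1 to 12 genes, and a difference between classes was not tested.

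**Figure D2:**
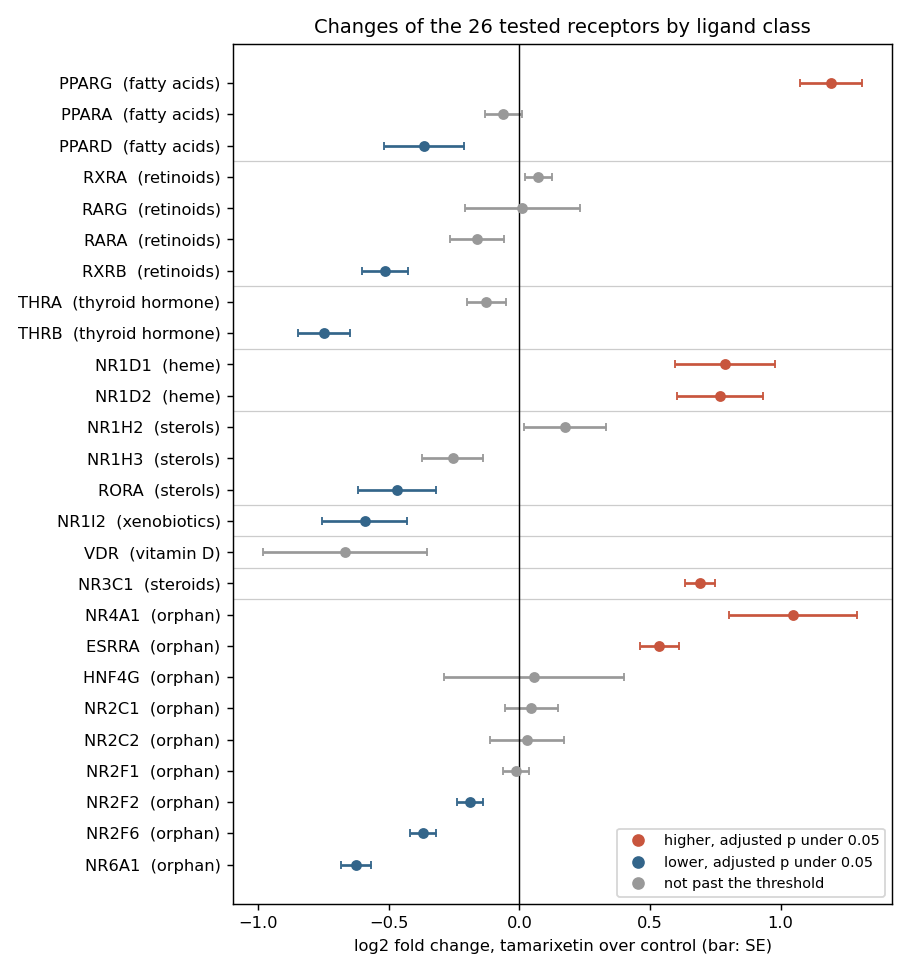
Log2 fold change of tamarixetin over control for the 26 tested receptors, grouped by ligand class (points; bars are the SE of the fit, n = 3 libraries each group). Red points, such as PPARG at 1.19, are higher and blue points, such as THRB at -0.75, are lower at an adjusted p under 0.05.

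Among the receptors for fatty acids, PPARG rose while PPARD fell and PPARA did not pass the test. PPARG (chromosome 3, 12287368 to 12434344, GRCh38.p14), the regulator of fat storage that is low in normal hepatocytes, had 21.9, 24.0 and 21.0 CPM in the tamarixetin libraries, against 9.19, 9.75 and 10.3 CPM in the control libraries. Every tamarixetin library stood above every control library, a 2.29-fold higher level (log2 fold change 1.19, SE 0.119, adjusted p = 2.55e-15), the largest fold change among the 26 receptors. PPARA, which drives fatty acid oxidation in the liver, was the most abundant PPAR, with 48.7, 47.3 and 44.6 CPM in the tamarixetin libraries, against 50.5, 48.8 and 47.8 CPM in the control libraries. Its groups overlapped, and the 95% interval of its log2 fold change was -0.20 to 0.076. PPARD (chromosome 6, 35342558 to 35428178), a broadly expressed fatty acid sensor, had 6.48, 8.54 and 8.33 CPM in the tamarixetin libraries, against 9.74, 10.8 and 9.47 CPM in the control libraries (log2 fold change -0.37, SE 0.154, adjusted p = 0.0445). The PPARD call was lost in 9 of 16 alternatives, among them the removal of tamarixetin replicate 1 (log2 fold change -0.24, adjusted p = 0.276), of control replicate 1 (0.0591), 2 (0.144) or 3 (0.0508), and its adjusted p ran from 0.0265 to 0.320 over the alternatives. PPARG made up 28.4%, 30.1% and 28.4% of PPAR counts in the tamarixetin libraries, against 13.2%, 14.0% and 15.2% in the control libraries, and PPARA stayed the largest part in all 6.

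RefSeq lists several starts for PPARG, and 3′ counts do not tell which was used. Windows from 250 bases before to 50 after each start (RefSeq, GRCh38.p14) were searched on both strands for AGGTCA, the core that nuclear receptors bind, for the E-box CACGTG, bound by clock factors, and for GCGTG, the core of the aryl hydrocarbon receptor site. The PPARG window with the most matches, chr3:12287118-12287417 on the plus strand, is shown because this gene had the largest change, and capitals mark the matches: AGGTCA at 2 places and GCGTG at 1 between them.
PPARG: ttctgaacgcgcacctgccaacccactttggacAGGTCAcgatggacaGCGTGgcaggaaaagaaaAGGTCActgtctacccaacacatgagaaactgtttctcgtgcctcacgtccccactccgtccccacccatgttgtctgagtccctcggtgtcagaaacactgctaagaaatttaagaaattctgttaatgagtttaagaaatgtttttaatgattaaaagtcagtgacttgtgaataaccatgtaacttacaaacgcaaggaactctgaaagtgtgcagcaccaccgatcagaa
AGGTCA was found in 13.8% of 35116 promoter windows of all genes and in 9 of 73 windows of the receptors, and GCGTG in 36.5% and in 29 of 73. These letters are a description of the window, not a measured binding site.

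PPAR target genes were mixed: of 15 tested in a list of 19, 5 rose and 8 fell, with a median log2 fold change of -0.15, beside 0.00038 over all genes. The carnitine palmitoyltransferase CPT1A, which lets fatty acids into mitochondria, had 293 ± 7.44 CPM with tamarixetin and 75.3 ± 1.38 CPM in control (SD, n = 3 each; log2 fold change 1.96, SE 0.0456), and the lipid droplet protein PLIN2 rose by 1.31 on the log2 scale (SE 0.0366). For the target genes below, a value with its SE beside a gene is likewise its log2 fold change. The fatty acid binding protein FABP1 (-0.79, SE 0.0346) and the peroxisomal enzyme EHHADH (-0.54, SE 0.0688) fell. PDK4 and FABP4 had too few counts to be tested and CYP4A11 had 0.

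NR3C1 (chromosome 5, 143277931 to 143435512), which encodes the glucocorticoid receptor, rose and was the most abundant of the receptors that rose. It had 95.2, 88.7 and 94.7 CPM in the tamarixetin libraries, against 56.0, 55.3 and 60.9 CPM in the control libraries. The groups lay apart, a 1.61-fold higher level with tamarixetin (log2 fold change 0.69, SE 0.0591, adjusted p = 1.09e-18). Of 12 tested glucocorticoid target and metabolism genes in a list of 16, 6 rose and 3 fell, with a median log2 fold change of 0.13. The EGF receptor inhibitor ERRFI1 (1.35, SE 0.0645) and the Krüppel-like factor KLF9 (1.05, SE 0.151) rose, and the plasma cortisol carrier SERPINA6 (-1.03, SE 0.0536) and the kinase SGK1 (-0.67, SE 0.115) fell. KLF9 also stands in the thyroid hormone list.

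The genes listed as chaperones that hold steroid receptors ready for ligand rose in 8 of 8, with a median log2 fold change of 0.39. The rises of the HSP90 genes themselves were the smallest of the list, HSP90AB1 at 0.078 (SE 0.0256) and HSP90AA1 at 0.071 (SE 0.0279). Neither HSP90 gene was followed in the alternatives, in which scaling by the upper quartile moved the median of all genes to -0.035. FKBP5 is counted both here and in the glucocorticoid list. HSPA8 (0.63, SE 0.0410), the HSP90 activator AHSA1 (0.52, SE 0.0437), the immunophilin FKBP4 (0.70, SE 0.0628) and the adaptor STIP1 (0.45, SE 0.0420) had the smallest p. FKBP4 had 78.7 ± 2.49 CPM with tamarixetin and 48.3 ± 1.49 CPM in control (SD, n = 3 each).

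Estrogen target and metabolism genes were lower in 3 and higher in 1 of 8 tested, with a median of -0.28, in cells where ESR1 was near the limit of detection. PDZK1, a scaffold protein, fell by 1.41 on the log2 scale (SE 0.171), the estrogen metabolising enzyme HSD17B2 by 0.57 (SE 0.101) and GREB1 by 0.51 (SE 0.0679), and cyclin D1 (CCND1) rose by 0.40 (SE 0.0371).

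Both heme receptors rose. NR1D1 and NR1D2 encode REV-ERBα and REV-ERBβ, repressors that feed back on the circadian clock and on liver lipid metabolism. NR1D1 (chromosome 17, 40092793 to 40100589) had 5.90, 8.18 and 8.91 CPM in the tamarixetin libraries, against 4.35, 3.75 and 5.02 CPM in the control libraries (log2 fold change 0.79, SE 0.190, adjusted p = 0.000341). NR1D2 (chromosome 3, 23945286 to 23980617) had 9.68, 9.99 and 9.32 CPM in the tamarixetin libraries, against 4.91, 6.33 and 5.83 CPM in the control libraries (log2 fold change 0.77, SE 0.165, adjusted p = 5.11e-05). In both genes each tamarixetin library was above each control library, and the folds were 1.72 and 1.70. RORA (chromosome 15, 60488284 to 61229302), an activator that competes with REV-ERB for the same DNA element, fell, with 8.40, 6.73 and 8.66 CPM in the tamarixetin libraries, against 12.6, 10.5 and 9.78 CPM in the control libraries (log2 fold change -0.47, SE 0.150, adjusted p = 0.00714). The RORA call was lost without tamarixetin replicate 2 (adjusted p = 0.0728) or control replicate 1 (0.0811), and with a minimum fold of 1.2 (0.114), within a range of 0.00379 to 0.114 over 16 alternatives. The RORA antisense gene RORA-AS1, whose exons overlap those of RORA near the 3′ end, had 15 counts with tamarixetin and 20 in control in all.

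The promoter windows of the REV-ERB genes are shown because both rose, for NR1D1 its single RefSeq start (chr17:40100540-40100839, minus strand) and for NR1D2 the start with the most matches (chr3:23945871-23946170, plus strand). Capitals mark the E-box and, on either strand, the aryl hydrocarbon receptor core.
NR1D1: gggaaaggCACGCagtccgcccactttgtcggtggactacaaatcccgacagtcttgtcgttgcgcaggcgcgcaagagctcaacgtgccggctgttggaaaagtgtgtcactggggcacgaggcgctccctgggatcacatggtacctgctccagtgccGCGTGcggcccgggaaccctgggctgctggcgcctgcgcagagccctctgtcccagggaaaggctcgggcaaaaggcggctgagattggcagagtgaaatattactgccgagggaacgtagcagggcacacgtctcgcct
NR1D2: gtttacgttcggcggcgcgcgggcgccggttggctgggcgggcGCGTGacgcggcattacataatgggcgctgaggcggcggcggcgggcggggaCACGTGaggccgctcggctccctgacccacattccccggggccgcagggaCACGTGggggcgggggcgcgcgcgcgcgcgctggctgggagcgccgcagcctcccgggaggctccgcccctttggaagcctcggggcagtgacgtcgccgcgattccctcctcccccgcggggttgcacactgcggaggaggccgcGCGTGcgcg
The NR1D2 window held the E-box at 2 places and the aryl hydrocarbon receptor core at 2, while the NR1D1 window held no E-box and that core at 2 places, on opposite strands. The E-box was found in 7.3% of all 35116 windows and in 4 of the 73 receptor windows, which belong to NR1D2, NR2C1, NR2F2 and RARA.

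THRA and NR1D1 lie tail to tail on chromosome 17, and their annotated exons share 263 bases near their 3′ ends (GENCODE 29). The strand setting of the counting is not given in the sources used here, and without strand the reads from this stretch cannot be told apart. THRA, with 38.2, 41.8 and 37.9 CPM in the tamarixetin libraries, against 44.4, 43.3 and 41.1 CPM in the control libraries, had the opposite sign (log2 fold change -0.13, SE 0.0755, adjusted p = 0.174). NR1D2 shares no exon with another gene in the files.

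Among REV-ERB and ROR targets, 3 of 8 tested rose and 2 fell, with a median log2 fold change of -0.075. The core clock activator BMAL1, which REV-ERB represses, had 1.45 ± 0.837 CPM with tamarixetin and 4.23 ± 0.662 CPM in control (SD, n = 3 each; log2 fold change -1.50, SE 0.295, adjusted p = 1.07e-05). The bile acid enzyme CYP8B1 fell by 1.05 on the log2 scale (SE 0.209), while the glucose-6-phosphatase G6PC1 (1.32, SE 0.241) and the clock repressor CRY1 (0.60, SE 0.145) rose.

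**Figure D3:**
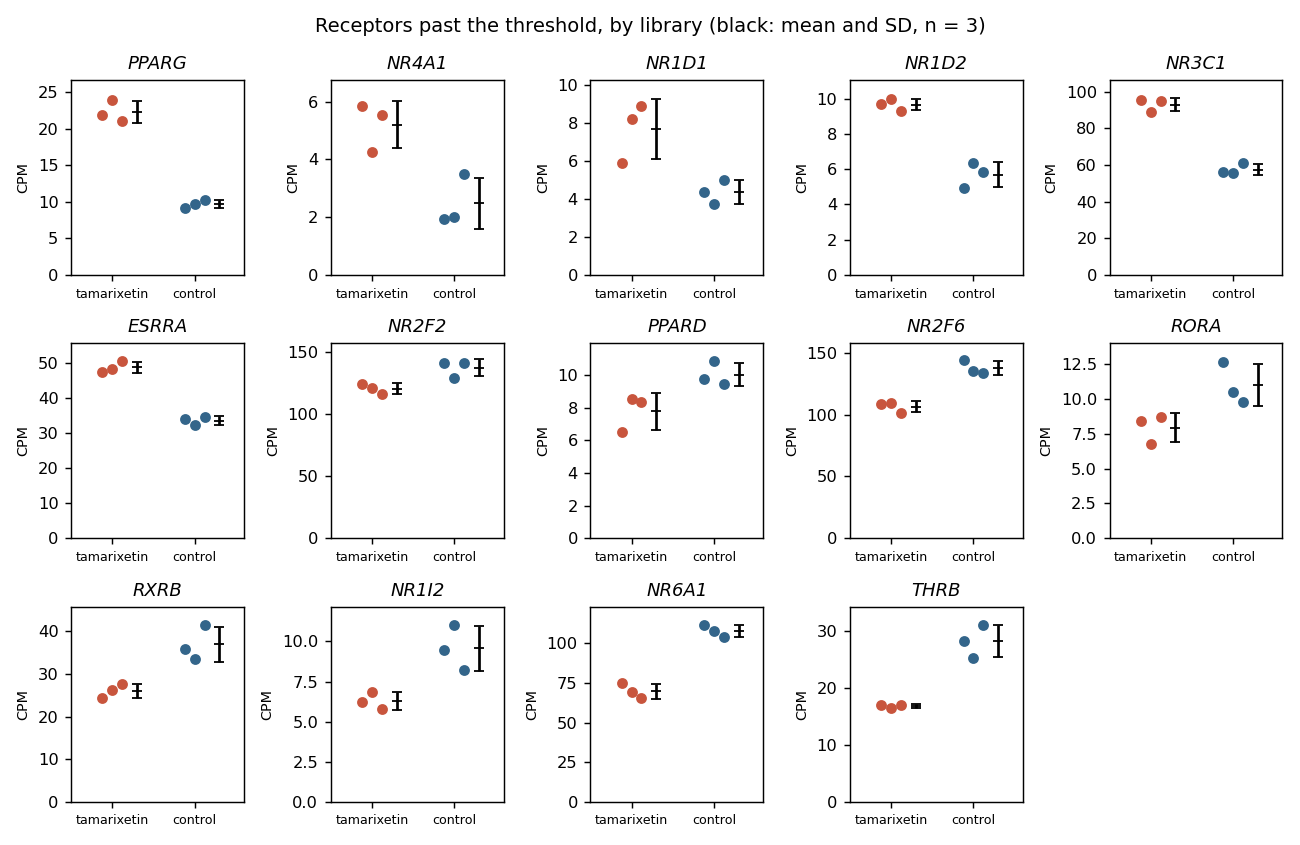
CPM in each library for the 14 receptors past the threshold, tamarixetin left and control right, each panel with its own axis from 0; black bars show the mean and SD (n = 3 each). In all 14 panels the tamarixetin points lie wholly above or wholly below the control points.

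Of the thyroid hormone receptors, THRB (chromosome 3, 24117153 to 24495708), the main form of liver, fell and THRA did not pass the test. THRB had 17.1, 16.5 and 17.0 CPM in the tamarixetin libraries, against 28.3, 25.3 and 31.0 CPM in the control libraries. The control libraries spread more widely than the tamarixetin libraries, and no values overlapped (0.596 times the control level, log2 fold change -0.75, SE 0.100, adjusted p = 4.36e-10). THRB gave 30.9%, 28.3% and 30.9% of the counts of the pair in the tamarixetin libraries, against 38.9%, 36.9% and 43.0% in the control libraries. Of 6 tested thyroid hormone target and metabolism genes in a list of 12, 2 rose and 2 fell, with a median of -0.25. The thyroxine carrier SERPINA7 fell by 1.83 on the log2 scale (SE 0.0643) and the bile acid enzyme CYP7A1, at 0.271 ± 0.134 CPM with tamarixetin and 1.25 ± 0.127 CPM in control, by 2.20 (SE 0.567). The corepressor HR (hairless) rose by 2.15 (SE 0.288) beside KLF9, and the classical target THRSP had at most 1 count in any library.

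Of the retinoid receptors, RXRB fell and RXRA, RARA and RARG did not pass the test. RXRB (chromosome 6, 33193588 to 33200853) had 24.3, 26.3 and 27.5 CPM in the tamarixetin libraries, against 35.9, 33.4 and 41.6 CPM in the control libraries (log2 fold change -0.51, SE 0.0871, adjusted p = 4.08e-07), with no overlap. RXRA, the more abundant partner, had 99.1, 107 and 102 CPM in the tamarixetin libraries, against 93.2, 96.4 and 103 CPM in the control libraries, with overlapping groups and a 95% interval of -0.031 to 0.18 for the log2 fold change. RXRB gave 19.7%, 19.7% and 21.3% of RXR counts in the tamarixetin libraries, against 27.8%, 25.7% and 28.8% in the control libraries. RARA, a retinoic acid receptor, had 20.0 ± 1.99 CPM with tamarixetin and 22.4 ± 0.813 CPM in control (95% interval -0.36 to 0.037), and RARG, at 4.65 ± 1.34 CPM with tamarixetin and 4.62 ± 0.851 CPM in control, had an interval of -0.42 to 0.44, which leaves a change of up to about that size undetected at this depth. The RXRB gene shares 244 exonic bases with SLC39A7 at its 5′ end, 6857 bases from the 3′ end where reads are expected.

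Retinoic acid targets fell in 3 and rose in 1 of 6 tested, with a median of -0.29. The retinol transporter STRA6, at 0.768 ± 0.342 CPM with tamarixetin and 2.78 ± 0.761 CPM in control, fell by 1.86 on the log2 scale (SE 0.392), the corepressor NRIP1 by 0.17 (SE 0.0575) and the transglutaminase TGM2 by 0.40 (SE 0.140). The TGM2 call was lost without tamarixetin replicate 2 (adjusted p = 0.0723), control replicate 2 (0.129) or control replicate 3 (0.0900), and the NRIP1 call without tamarixetin replicate 2 (0.0526) or control replicate 1 (0.0969). Over all alternatives the adjusted p ran from 0.000671 to 0.208 for TGM2 and from 0.00184 to 1.000 for NRIP1. CYP26A1, a highly responsive retinoic acid target, had 0 to 3 counts per library. In retinoid supply, 5 of 10 tested genes rose and 3 fell (median 0.098): the plasma retinol carrier RBP4 (-0.37, SE 0.0354), its partner TTR (-0.40, SE 0.0460) and the retinyl esterase PNPLA3 (-0.94, SE 0.0812) fell, and the retinol dehydrogenase RDH10 rose (0.66, SE 0.117).

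**Figure D4:**
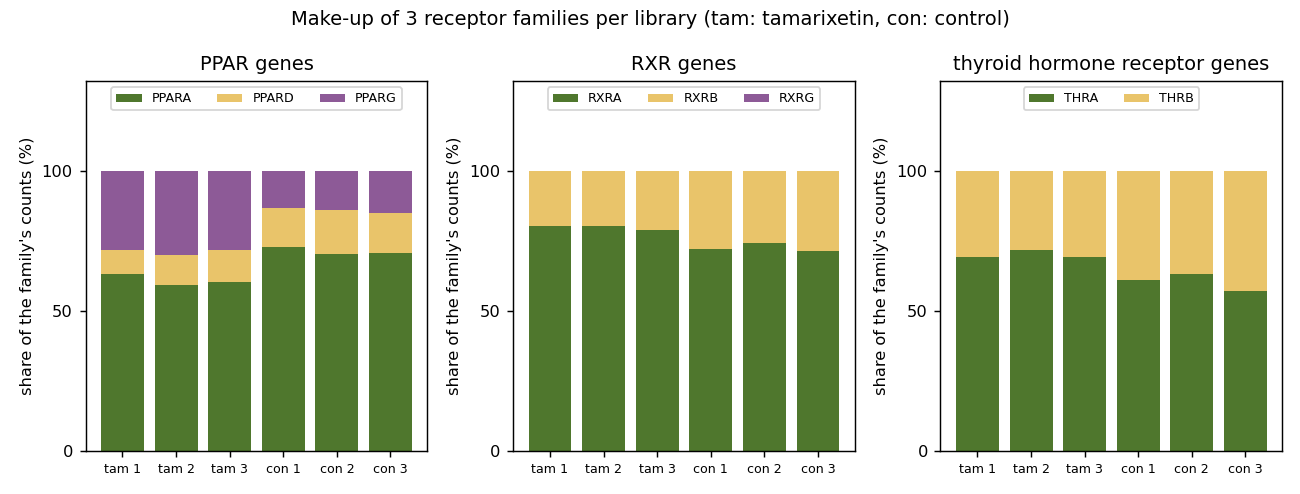
Share of the counts of the PPAR, RXR and thyroid hormone receptor genes that each member took in each library (percent, stacked bars, 1 bar per library). PPARG takes 28.4% to 30.1% of PPAR counts in tamarixetin libraries and 13.2% to 15.2% in control libraries, and the shares of RXRB and THRB are smaller in every tamarixetin library than in any control library.

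The oxysterol receptors LXRα (NR1H3) and LXRβ (NR1H2), which raise cholesterol efflux and fatty acid synthesis, did not pass the test. NR1H3 had 12.6, 16.0 and 16.6 CPM in the tamarixetin libraries, against 17.3, 18.8 and 17.7 CPM in the control libraries, with no overlap (log2 fold change -0.26, SE 0.116, adjusted p = 0.0656). NR1H3 passed without tamarixetin replicate 3 (adjusted p = 0.0364) and with upper quartile scaling (0.0345), within a range of 0.0345 to 0.637 over the alternatives. NR1H2 had 8.70 ± 1.05 CPM with tamarixetin and 7.73 ± 0.861 CPM in control (SD, n = 3 each), with a 95% interval of -0.14 to 0.48 for the log2 fold change. Of 11 tested LXR targets in a list of 13, 7 fell and none rose, with a median of -0.34. The sterol exporters ABCA1 (38.0 ± 2.44 CPM with tamarixetin and 65.1 ± 2.49 CPM in control; log2 fold change -0.77, SE 0.0694), ABCG8 (-0.68, SE 0.135) and ABCG5 (-0.63, SE 0.144) fell, as did the phospholipid transfer protein PLTP (-0.59, SE 0.0988). Of the fatty acid synthesis genes in the list, the regulator SREBF1 fell (-0.34, SE 0.112). The synthase FASN (0.084, SE 0.0364) and the desaturase SCD (-0.012, SE 0.0337) did not pass the test.

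Of the xenobiotic receptors, PXR (NR1I2, chromosome 3, 119782101 to 119818487), which senses drugs and bile acids, fell, and CAR (NR1I3) was too low to be tested. NR1I3 shares 661 exonic bases at its 3′ end with TOMM40L on the other strand. Without strand these reads cannot be told apart, so the level of NR1I3 is uncertain. NR1I2 had 6.22, 6.88 and 5.77 CPM in the tamarixetin libraries, against 9.47, 11.0 and 8.21 CPM in the control libraries, each tamarixetin library below each control library (log2 fold change -0.59, SE 0.163, adjusted p = 0.00167). The genes listed as PXR and CAR targets had the other sign: 6 of 8 tested rose and none fell, with a median of 0.81. The drug exporters ABCB1 (117 ± 1.61 CPM with tamarixetin and 43.9 ± 5.16 CPM in control; log2 fold change 1.41, SE 0.0610), ABCC3 (1.11, SE 0.0639) and ABCC2 (0.98, SE 0.0398) and the sulfotransferase SULT2A1 (0.79, SE 0.0451) had the smallest p. The classical targets were too low to be tested: CYP3A4 had 6, 3 and 5 counts in the tamarixetin libraries, against 1, 1 and 3 in the control libraries, CYP2B6 had 9, 3 and 1 counts with tamarixetin, against 0, 0 and 0 in control, and CYP2C8 had at most 1 count in any library.

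The vitamin D receptor gene VDR was low, with 2.63, 1.45 and 1.24 CPM in the tamarixetin libraries, against 2.35, 3.00 and 3.26 CPM in the control libraries (log2 fold change -0.67, SE 0.314, adjusted p = 0.0761). Its groups overlapped through tamarixetin replicate 1, and without that library the log2 fold change was -1.09 (adjusted p = 0.0156, within a range of 0.0156 to 0.267 over the alternatives). All 4 tested genes of a list of 9 drawn up for vitamin D changed, 2 in each direction, with a median of 0.16. CYP24A1, the vitamin D hydroxylase and main VDR target, rose, with 48.4 ± 7.75 CPM with tamarixetin and 13.8 ± 0.649 CPM in control (SD, n = 3 each; log2 fold change 1.80, SE 0.0959). OSTM1, for which no source of a link to vitamin D is given here, rose by 0.81 (SE 0.117). The hydroxylases CYP27A1 and CYP27B1 fell by 0.48 (SE 0.0415) and 1.10 (SE 0.435), the second at 0.774 ± 0.273 CPM with tamarixetin and 1.65 ± 0.742 CPM in control and with its call lost in 9 of the 15 alternatives in which it was tested, among them without tamarixetin replicate 1 (adjusted p = 0.148) or 3 (0.0999) and without control replicate 2 (0.0664) or 3 (0.306, where the log2 fold change was -0.71).

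Among the orphans, ESRRA (chromosome 11, 64305524 to 64316743) rose. It encodes ERRα, which works with PGC-1 coactivators on mitochondrial genes, and had 47.3, 48.3 and 50.6 CPM in the tamarixetin libraries, against 33.9, 32.2 and 34.5 CPM in the control libraries, a 1.45-fold higher level (log2 fold change 0.54, SE 0.0755, adjusted p = 2.24e-09). Its last exon shares 284 bases with TRMT112 on the other strand, at the 3′ end where reads are expected, and without strand these reads cannot be told apart. TRMT112 itself had 483 ± 7.04 CPM with tamarixetin and 482 ± 3.81 CPM in control (SD, n = 3 each; log2 fold change 0.0019). Of 10 tested ERR and PGC-1 targets in a list of 12, 5 rose and 1 fell, with a median of 0.12. The electron carrier CYCS (0.53, SE 0.0462), the Krebs cycle subunit IDH3A (0.59, SE 0.0677) and the mitochondrial transcription factor TFAM (0.14, SE 0.0450) rose, and the acyl-CoA dehydrogenase ACADM fell (-0.36, SE 0.0622). The calls of TFAM and ACADM were lost with a minimum fold of 1.2. The coactivator genes PPARGC1A and PPARGC1B, named after their values were seen, had 19.4 ± 2.25 CPM with tamarixetin and 13.8 ± 0.562 CPM in control for PPARGC1A (log2 fold change 0.49), and 3.71 ± 0.446 CPM with tamarixetin and 1.15 ± 0.336 CPM in control for PPARGC1B (log2 fold change 1.69).

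NR4A1 (chromosome 12, 52022832 to 52059503), the early response receptor NUR77, rose and was the only tested NR4A gene. It was low, with 5.84, 4.27 and 5.53 CPM in the tamarixetin libraries, against 1.94, 2.00 and 3.51 CPM in the control libraries (log2 fold change 1.05, SE 0.245, adjusted p = 0.000207), and the groups lay apart. NR4A1 was left out by the filter of 5 CPM in 3 libraries and kept its call in the 15 alternatives in which it was tested. Its exons share 754 bases with AC025259.3 on the other strand, ending 4 bases from the 3′ end. AC025259.3 was not among the genes counted. Without strand the reads from this stretch cannot be told apart, so the level of NR4A1 is uncertain.

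NR6A1 (chromosome 9, 124517275 to 124771311), a repressor of pluripotency genes known from mouse embryos and germ cells, fell, with 74.8, 69.0 and 65.4 CPM in the tamarixetin libraries, against 112, 108 and 104 CPM in the control libraries (log2 fold change -0.63, SE 0.0558, adjusted p = 1.03e-17). The tamarixetin libraries all lay below the lowest control library, at 0.648 times the control mean. Of the COUP-TF genes, NR2F6 (chromosome 19, 17231883 to 17245919) had 108, 109.7 and 101 CPM in the tamarixetin libraries, against 144, 136 and 134 CPM in the control libraries (log2 fold change -0.37, SE 0.0492, adjusted p = 3.71e-10), and NR2F2 (chromosome 15, 96326046 to 96340263) had 124, 121 and 116 CPM in the tamarixetin libraries, against 141, 129.5 and 141 CPM in the control libraries (log2 fold change -0.19, SE 0.0484, adjusted p = 0.000697). Both groups lay apart in both genes, but the fall of NR2F2 was small and was not called with a minimum fold of 1.2. NR2F1 had 124, 119.6 and 117 CPM in the tamarixetin libraries, against 120.0, 118 and 127 CPM in the control libraries, with overlap and a 95% interval of -0.11 to 0.082 on the log2 scale, its sign turning to 0.021 with scaling by library size alone. The difference in response between the COUP-TF genes was not tested.

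The testicular receptors NR2C1 and NR2C2, repressors that bind AGGTCA repeats, and HNF4G, a relative of the hepatocyte factor HNF4A, overlapped between the groups. NR2C1 had 21.6 ± 0.640 CPM with tamarixetin and 20.9 ± 1.30 CPM in control (95% interval of the log2 fold change -0.15 to 0.24), and NR2C2 had 11.6 ± 2.26 CPM with tamarixetin and 11.3 ± 1.76 CPM in control (interval -0.25 to 0.30; SD, n = 3 each). NR2C2 shares 1197 exonic bases near its 3′ end with MRPS25 on the other strand, so its level is uncertain. HNF4G had 1.54, 3.55 and 1.15 CPM in the tamarixetin libraries, against 2.42, 1.42 and 2.13 CPM in the control libraries, and its interval of -0.62 to 0.73 is the widest of the 26. Of the hepatocyte receptors outside the 34, HNF4A (-0.20, SE 0.0427), the bile acid receptor gene NR1H4 (-1.60, SE 0.144) and the corepressor NR0B2 (-0.26, SE 0.0655) fell, and NR5A2 was too low to be tested. The calls of HNF4A and NR0B2, like that of NR2F2, were lost with a minimum fold of 1.2.

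All 22 coregulator genes listed were tested, and 7 rose and 7 fell, with a median log2 fold change of 0.058. The steroid receptor coactivator NCOA3 had 54.7 ± 4.89 CPM with tamarixetin and 108 ± 5.27 CPM in control (SD, n = 3 each; log2 fold change -0.98, SE 0.0593, adjusted p = 5.88e-28), and the cofactor TRIM24 fell by 0.45 (SE 0.0448). The coactivator NCOA7 (0.71, SE 0.0778) rose.

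**Figure D5:**
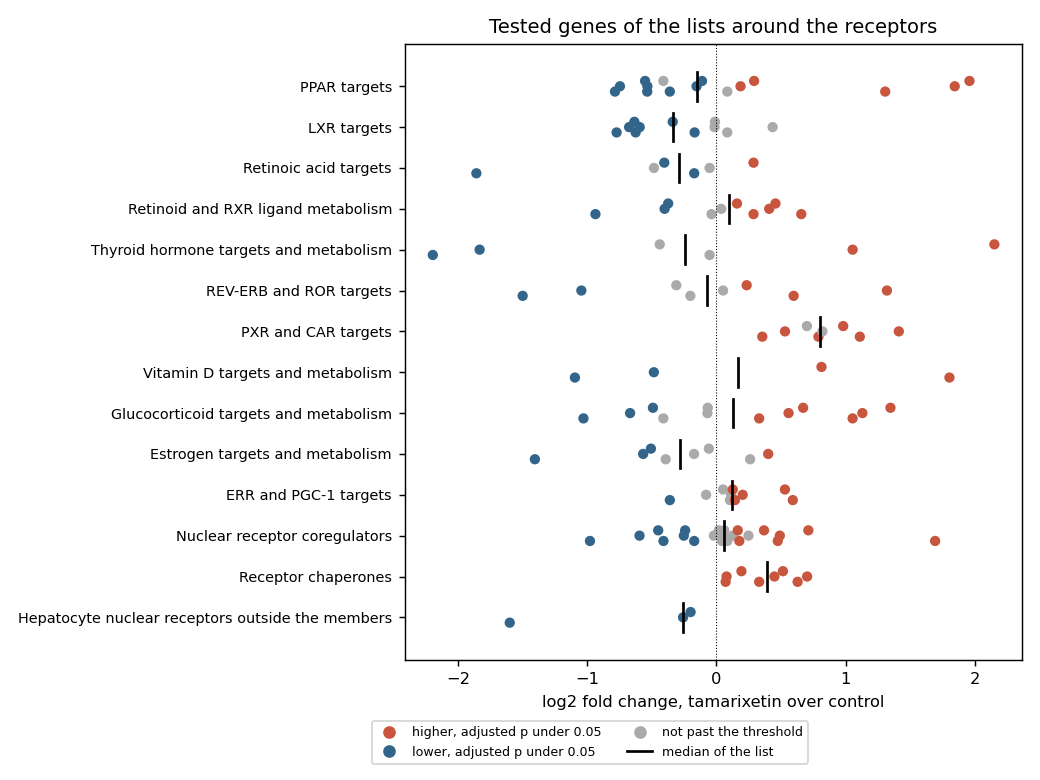
Log2 fold change of tamarixetin over control for the tested genes of 14 lists around the receptors, 1 point per gene, with the list's median as a black line. The PXR and CAR list has a median of 0.81 and no gene called lower, the LXR list a median of -0.34 and no gene called higher, and the other lists, apart from the chaperones and the hepatocyte receptors, hold points on both sides of 0.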

How the data were processed

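RNA of 6 HepG2 cultures was read with QuantSeq 3′ libraries (forward kit), per the labels' protocols. The submitters' processing notes name GRCh38 and the tools fastp 0.23.1, STAR 2.7.10b and featureCounts 2.0.6. Not given in the sources used here are the annotation release, whether counting used strand, and whether molecular identifiers were used. The authors deposited 1 table of raw counts by gene symbol for each library, with no normalisation. The test was the quasi-likelihood F test of edgeR 4.0.16, run in R 4.3.3 (filterByExpr, TMM factors, no covariate, Benjamini-Hochberg adjustment over 13198 genes, threshold 0.05). The SE is the size of the log2 fold change over the root of F, the 95% intervals come from it, and CPM uses TMM-adjusted library sizes unless said otherwise. The common biological coefficient of variation was 4.70%. Chi-square per gene was 2.08 to 2.89 between libraries of 1 group and 26.3 to 33.8 between groups, so none was treated as a copy. Positions come from RefSeq (GRCh38.p14), in which 42735 symbols of the files were found; promoter windows were found for 30 of the 34 receptors, and none is shown for VDR, NR2F6, NR4A2 and HNF4G. The receptors, their ligand classes and the gene lists were chosen with earlier results of these data known. The rule for named genes took all 34 receptors and up to 4 tested genes of each list with the smallest p; some genes of the lists are counted but not reported here by name. Further genes are named where they are untested members of a list or overlap a receptor. The HSP90 genes, FKBP5, SREBF1, FASN and SCD were named after their values were seen. The lists are described by counts and medians and have no test of their own, and the promoter motifs were chosen after the values were seen. Alternatives were DESeq2 size factors, upper quartile factors or library size alone, no filter, a floor of 5 CPM for 3 libraries, a replicate block, each library left out, DESeq2 1.42.0, limma-voom (limma 3.58.1), an adjusted p of 0.01 and a minimum fold of 1.2.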

Additional observations from a re-analysis of the deposited data

How the results depend on the processing

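Over 16 alternatives, 11 of the 14 called receptors kept their direction and their call wherever they were tested; the exceptions were PPARD and RORA, given above, and NR2F2 with a minimum fold of 1.2. Receptors that rose numbered 6 in the alternatives other than a floor of 5 CPM for 3 libraries, where NR4A1 was not tested and 5 rose. Receptors that fell numbered 6 to 9 when a library was left out (8 with all), and 5 with a minimum fold of 1.2, since that asks for a larger change. All genes called numbered 5155 to 5367 with a library left out, against 5771 with all, and 2560 with the minimum fold. With the replicate number as a block, 5735 genes were called and 6 receptors rose and 8 fell, the same 14; deviations of same-numbered libraries correlated at -0.0089, -0.041 and -0.020, so the numbers were not used as pairs. Signs turned in 4 receptors that were not called: NR2F1 to 0.021 with library size alone, RARG to -0.023 with upper quartile factors and -0.0058 with limma-voom, NR2C2 to -0.0067 with upper quartile factors, and HNF4G to -0.039 with the block and -0.081 with limma-voom. With a library left out these ran from -0.19 to 0.21 (RARG), -0.11 to 0.16 (NR2C2), -0.040 to 0.014 (NR2F1) and -0.56 to 0.32 (HNF4G). Scaling by library size alone moved the median of all genes to 0.035 and by the upper quartile to -0.035. Of 56 other named genes followed in the alternatives, 8 lost a call under some alternative and none turned sign. The cause of these shifts was not tested. Receptors under about 5 CPM have wide intervals at this depth.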

Other observations

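Of the 34 receptor genes 6 lie in a pair of clusters with the same make-up, each with a heme receptor, a thyroid hormone receptor and a retinoic acid receptor. On chromosome 3, NR1D2 (23945286 to 23980617), THRB (24117153 to 24495708) and RARB (24829321 to 25597932) follow each other within 1.65 Mb. On chromosome 17, THRA (40062193 to 40093867), NR1D1 (40092793 to 40100589) and RARA (40309180 to 40357643) lie within 0.295 Mb, with the coding genes MSL1, CASC3, RAPGEFL1, WIPF2 and CDC6 between NR1D1 and RARA. In both clusters the heme receptor rose, NR1D2 by 0.77 (SE 0.165) and NR1D1 by 0.79 (SE 0.190) on the log2 scale. The thyroid hormone receptor beside it did not rise: THRB fell by 0.75 (SE 0.100), and THRA changed by -0.13 (SE 0.0755), with an adjusted p of 0.174 in edgeR's test. RARA had -0.16 (SE 0.102) and RARB was too low to be tested. Of the other coding genes that reach into the clusters, TOP2B (-0.40, SE 0.0556) and CDC6 (-0.62, SE 0.0751) fell, MSL1 (0.16, SE 0.0553) and CASC3 (0.12, SE 0.0477) rose, and NKIRAS1, RAPGEFL1 and WIPF2 did not pass the test. These neighbours were chosen by position after the receptor values were known, and a shared response of the clusters was not tested.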
